A study of Mus musculus with 79 samples.

Results

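The kidney response to low oxygen in the light phase was read from 8 of the series' 79 libraries: 4 kidneys of wild-type mice that had breathed 6% oxygen for 4 h and 4 kidneys of wild-type mice that had breathed 21% oxygen, the level of air, over the same hours. The libraries were picked by the tissue, time and oxygen level in their labels, not by any measured value. All mice were C57BL/6, 3 months old and kept on a cycle of 12 h light and 12 h dark, and exposure ran from zeitgeber time (ZT) 4 to 8 h, where ZT 0 is lights on. Replicates A to D of a group are separate mice per the series' design text. Comparisons were drawn with 8 kidney libraries exposed at ZT16-20, in the dark phase, and with liver and lung libraries of mice exposed at ZT4-8. Each library is bulk kidney, so fewer cells of a type and less RNA per cell cannot be told apart in any value given here. Values are CPM, counts scaled to a fixed library total, after TMM scaling, given as mean ± SD with n = 4 where summarised. A gene was called changed, and is said to have risen or fallen, at a Benjamini-Hochberg adjusted p under 0.05 in edgeR's quasi-likelihood test, and every adjusted p of a single gene below is from that test unless DESeq2 is named. A log2 change is 6% against 21% oxygen, and a fold is a ratio of group means.

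As background, cells sense oxygen through prolyl hydroxylases that mark the HIF alpha subunits for destruction while oxygen is present. When oxygen falls, HIF alpha pairs with ARNT and binds DNA at a short core motif near genes for glycolysis, blood vessel growth and red cell production. The kidney is known as the organ whose interstitial cells release erythropoietin, and parts of its tubule work at low oxygen even in a resting animal. The proximal tubule spends much of the organ's energy on reabsorbing salt, sugar and water. The molecular clock is a loop in which BMAL1 (gene Arntl) with CLOCK or NPAS2 switches on the Per and Cry repressors and Nr1d1 through E-box motifs. PAR bZIP factors such as DBP, TEF and HLF activate genes at D-box motifs that NFIL3 represses.

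A promoter is shown for 1 member each of the HIF target, clock repressor, D-box and heat shock groups, since the results turn on those groups. The windows come from RefSeq on GRCm38.p6 and run from 250 bases before to 50 bases after the start of transcription, 5′ to 3′ on the gene's strand. Capitals mark every match on either strand to 1 motif per gene. The motif is ACGTG, the HIF core, in Ankrd37 (chr8:45999801-46000100, minus strand) and CACGTG, the E-box, in Ciart (chr3:95882179-95882478, minus strand). It is TTATGNAA, the D-box, in Per3 (chr4:151044616-151044915, minus strand) and GAANNTTC, the heat shock element, in Hspb1 (chr5:135887669-135887968, plus strand).
Ankrd37: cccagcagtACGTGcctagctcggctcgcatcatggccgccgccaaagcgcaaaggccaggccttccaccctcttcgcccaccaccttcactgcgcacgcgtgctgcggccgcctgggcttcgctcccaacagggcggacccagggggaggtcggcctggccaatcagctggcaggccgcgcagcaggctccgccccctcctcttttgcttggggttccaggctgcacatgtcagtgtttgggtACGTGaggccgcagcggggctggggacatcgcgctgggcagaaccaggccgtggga
Ciart: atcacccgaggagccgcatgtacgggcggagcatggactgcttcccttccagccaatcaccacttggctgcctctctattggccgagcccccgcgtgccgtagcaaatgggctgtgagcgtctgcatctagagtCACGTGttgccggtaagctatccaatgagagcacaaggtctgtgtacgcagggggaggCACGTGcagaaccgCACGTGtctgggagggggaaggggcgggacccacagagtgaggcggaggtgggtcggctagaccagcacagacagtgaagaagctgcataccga
Per3: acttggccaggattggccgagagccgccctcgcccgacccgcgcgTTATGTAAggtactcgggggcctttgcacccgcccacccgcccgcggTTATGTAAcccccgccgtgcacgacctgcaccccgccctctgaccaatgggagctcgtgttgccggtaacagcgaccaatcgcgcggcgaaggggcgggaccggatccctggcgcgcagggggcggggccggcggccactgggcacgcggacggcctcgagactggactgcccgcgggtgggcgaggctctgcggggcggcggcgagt
Hspb1: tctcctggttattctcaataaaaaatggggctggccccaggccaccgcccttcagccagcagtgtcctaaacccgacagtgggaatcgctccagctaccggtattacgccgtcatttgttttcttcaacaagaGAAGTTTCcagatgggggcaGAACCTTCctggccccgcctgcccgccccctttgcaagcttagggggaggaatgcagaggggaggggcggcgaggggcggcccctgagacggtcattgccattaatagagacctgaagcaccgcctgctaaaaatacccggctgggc
The Ankrd37 window held 2 HIF cores, the Ciart window 3 E-boxes, the Per3 window 2 D-boxes and the Hspb1 window 2 heat shock elements. Over 27025 genes with a window, taking the first listed per gene, 19.7% held the HIF core, 7.24% the E-box, 3.52% the D-box and 7.95% the heat shock element. An E-box always contains the HIF core. A match is a run of letters and not a measured binding site. Of the 10878 genes tested 8331 had a window. The HIF core, E-box, D-box and heat shock element were in 25.9%, 10.6%, 1.91% and 5.59% of these. In the same order they were in 32.5%, 13.6%, 1.32% and 4.39% of the 228 genes called higher with a window. Of the 217 called lower with a window, 25.3%, 9.68%, 4.15% and 5.99% held them. Among HIF targets with a window, of the list described below, 14 of 19 held the HIF core. Core clock genes with a window held the E-box in 3 of 10 and the D-box in 2 of 10. Clock-controlled output factors with a window held the E-box in 2 of 11 and the D-box in 0 of 11. No share was taken for the heat shock list. Differences between these shares were not tested.

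Total counts were 2914724 to 3865161 in the 21% libraries and 2148455 to 3076601 in the 6% libraries (exact two-sided permutation p = 0.057, adjusted p = 0.28 over 17 library measures). No libraries were copies of each other: pairs within a group differed by 3.09 to 23.0 in chi-square per degree of freedom. The 21% libraries stood apart in pairs. Of the 7820 genes that averaged 10 CPM or more in them, 57.3% had both A and C above, or both below, B and D, against 20.5% and 22.1% for the other ways to split the 4 into pairs. The summed CPM of 26 proximal tubule transport genes ran the same way, 18451 in A and 17776 in C but 21882 in B and 22133 in D, and was 16459 to 19837 in the 6% libraries. Its part in the results was not tested. Where leaving out A and C, or B and D, ended the call of a gene named below, its adjusted p without them is given, a choice made after seeing the data.

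Of 10878 genes tested, 574 were called (5.28%), 303 higher at 6% oxygen (2.79%) and 271 lower (2.49%), and the median log2 change over all genes was 0.004. The count fell to 342 without the 21% library B and rose to 1017 without C. It was 286 without B and D, 1854 without A and C, and 264 where only these 8 libraries were fitted. The shares of 2.79% higher and 2.49% lower are the background for each list count of called genes below. Where a list count at an unadjusted p under 0.05 is given, its background is 2048 of the 10878 genes, both directions together. The lists and their members were chosen with earlier results of these data known. The groups of the 14 largest rises and 14 largest falls did not overlap, since the naming rule asks for that. Of these 28 genes all but Plk3 were called in every alternative fit. Groups without overlap were common: they were found in 517 of the 574 called genes and in 1093 of all genes tested (10%). A lack of overlap noted below is to be read beside these shares.

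**Figure D1:**
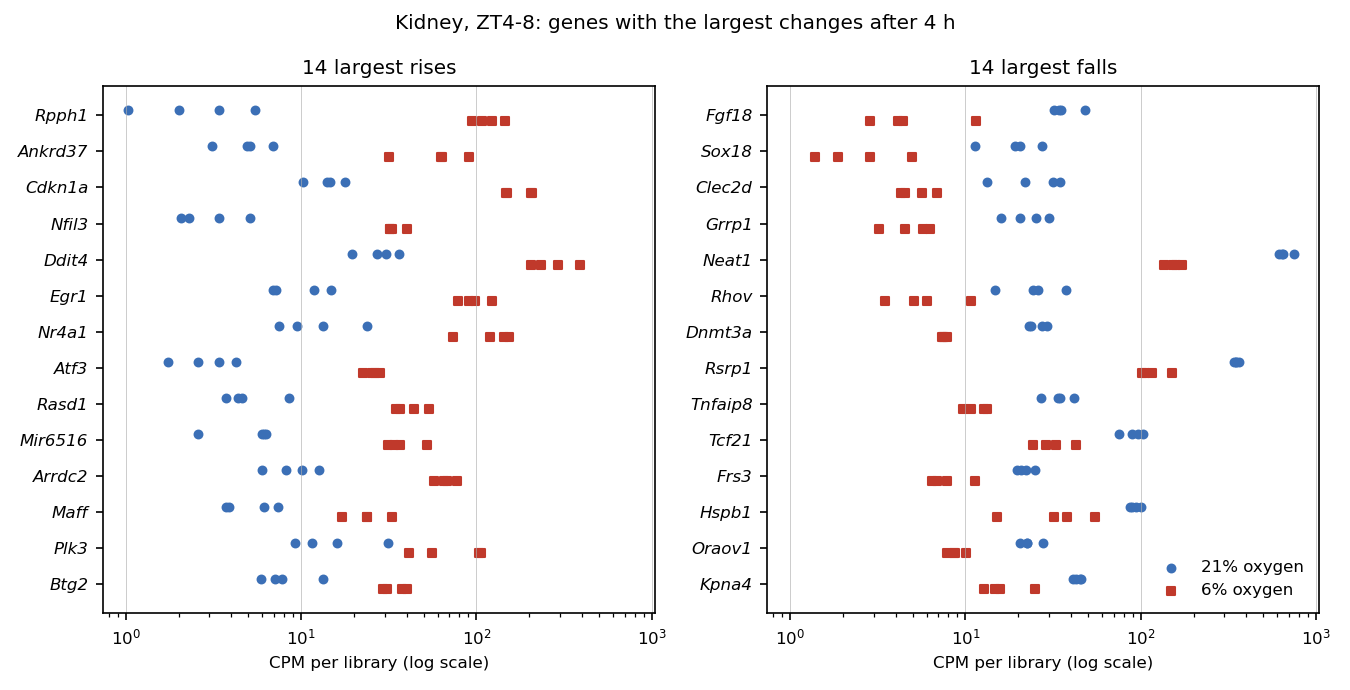
CPM of the 14 genes with the largest rises (left) and the 14 with the largest falls (right) at 6% oxygen, on a logarithmic axis; each circle is a kidney at 21% oxygen and each square a kidney at 6% (4 each). The circles and squares of every gene lie apart, and Rpph1 moves farthest, from 1.03 to 5.44 CPM at 21% oxygen to 94.7 to 146 CPM at 6%.

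Of the genes named, the largest rise was that of Rpph1, the RNA part of ribonuclease P, which trims transfer RNA precursors. It stood at 5.44, 1.03, 3.40 and 2.02 CPM in the 21% libraries A to D and at 122, 146, 94.7 and 108 CPM in the 6% libraries A to D, the order used throughout. Every 6% kidney was far above every 21% kidney, by 39.5-fold on the means (log2 change 5.34 ± 0.32 SE, adjusted p = 2.5e-09). Its gene lies on chromosome 14 at 50807449-50807767 (minus strand, GENCODE vM21 on mm10), inside an annotated span of Ccnb1ip1 on the same strand, so reads of the latter could be counted to it. The same limit holds for Mir6516, a microRNA locus inside the noncoding gene Snhg20 on the same strand (chromosome 11, 117077348-117077457). It rose from 5.25 ± 1.8 to 38.4 ± 9.4 CPM (adjusted p = 5.9e-07), and which of the overlapping genes the reads come from cannot be told.

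Immediate early genes, which cells transcribe within minutes of a stimulus, were called higher in all 13 of the tested members (of 20 listed), with a median log2 change of 1.67. Of all genes tested 2.79% were called higher. Egr1, a zinc finger transcription factor, was at 11.9, 6.96, 14.8 and 7.21 CPM at 21% oxygen and at 91, 98.2, 78.9 and 123 CPM at 6%. The lowest 6% kidney was above the highest 21% kidney, and the means differed 9.58-fold (log2 change 3.26 ± 0.23 SE, adjusted p = 1.3e-08). Fos, a subunit of the AP-1 dimer, rose from 1.31 ± 0.19 to 15.6 ± 3.1 CPM, and its partners Junb, Jun and Jund rose 3.19-fold, 2.20-fold and 1.73-fold. The stress factor Atf3 rose 8.56-fold, from 2.99 ± 1.1 to 25.6 ± 2.3 CPM, and the nuclear receptor Nr4a1 9.04-fold, from 13.6 ± 7.3 to 123 ± 36 CPM. Zfp36, whose protein speeds the decay of short-lived mRNAs, rose 3.24-fold, Ier3 2.47-fold and Ier2 1.90-fold. Fosl2, another AP-1 gene, was lost without the 6% library C (adjusted p 0.058) and without B and D of the 21% ZT4-8 libraries together (0.12). Fosb, Nr4a2 and Nr4a3, also of the list, were too low to be tested, and Nr4a3 had 1, 0, 1 and 0 counts at 21% oxygen and 8, 5, 8 and 16 at 6%. Maff, a small MAF factor outside the list, was among the largest rises at 4.62-fold.

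Of 12 MAP kinase phosphatases and feedback genes, which act as brakes on signalling, 3 were higher, 1 was lower and 8 were not called. Dusp2 rose 3.22-fold, and Dusp1, which removes phosphate from p38 and JNK, 2.09-fold (adjusted p = 0.0040; 0.084 without the 21% libraries B and D). Dusp6, which acts on ERK, fell 1.96-fold, with all its 6% values (11.4, 12, 10.9 and 10.7 CPM) below all its 21% values (21.1, 22.2, 20.1 and 24.8 CPM). The rise of Dusp8 (1.26 on the log2 scale, adjusted p = 0.035) was lost without the 21% libraries B, C or D or the 6% libraries A or C (adjusted p 0.065 to 0.16), with a replicate block (0.064), in a fit of these 8 libraries alone (0.13) and without B and D of the 21% ZT4-8 libraries together (0.16).

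Among 14 Kruppel-like factors, a family of zinc finger transcription factors, 6 were higher and 0 lower: Klf6, Klf9, Klf4, Klf15, Klf11 and Klf13. Klf9, induced by glucocorticoids and thyroid hormone, stood at 369, 166, 389 and 144 CPM at 21% oxygen, which shows the split of A and C from B and D, and at 693, 825, 725 and 649.6 CPM at 6%. All 6% kidneys were nevertheless above all 21% kidneys (adjusted p = 0.0015). Klf6 split likewise at 21% oxygen, at 23.8, 10.3, 28.4 and 11.5 CPM, and was 55.9, 47, 72.2 and 67 CPM at 6%. Klf4 rose 2.21-fold and Klf15 1.91-fold. The calls on Klf11 and Klf13 were the weakest: Klf11 (adjusted p = 0.034) was lost without the 21% libraries A or B or the 6% libraries A, C or D (adjusted p 0.058 to 0.10), in a fit of these 8 libraries alone (0.063), without A and C of the 21% ZT4-8 libraries together (0.099) and without B and D of the 21% ZT4-8 libraries together (0.052). Klf13 (adjusted p = 0.014) was lost without the 21% libraries B or D (adjusted p 0.055 to 0.062), in a fit of these 8 libraries alone (0.073) and without B and D of the 21% ZT4-8 libraries together (0.23).

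Cdkn1a, the gene of the cell cycle inhibitor p21, was at 10.2, 14.7, 17.9 and 14.1 CPM at 21% oxygen and at 148, 147, 203 and 208 CPM at 6%. The 12.4-fold rise (log2 change 3.62 ± 0.18 SE, adjusted p = 5.6e-11) was far beyond the spread within either group. Cdkn1a counts in the lists of p53 targets, glucocorticoid-induced genes and tubular injury genes. Other members are shared between lists too: Btg2 and Atf3 are also immediate early genes, Ddit4, Klf9, Sgk1 and Per1 are also glucocorticoid-induced, and Gdf15 is in the p53 and integrated stress response lists. Of 15 tested p53 targets 7 were higher and 0 lower (median log2 change 0.80). Sesn1, which restrains the growth kinase mTORC1, rose 2.69-fold, Btg2, an antiproliferative gene, 4.05-fold, Gadd45a, a growth arrest gene, 1.75-fold, and Trp53inp1 2.49-fold. The target Ccng1, a cyclin, was 90.5 ± 15 CPM at 21% oxygen and 67.1 ± 9.5 CPM at 6% and was not called (adjusted p = 0.075), although it was called lower without the 21% library A (0.032). The stress kinase Plk3 rose 4.48-fold (adjusted p = 0.016), a call lost without the 21% libraries B or D (adjusted p 0.057) and without B and D of the 21% ZT4-8 libraries together (0.20). Gdf15, a stress hormone, rose 1.85-fold (adjusted p = 0.023), a call lost without the 21% libraries A or B or the 6% libraries C or D (adjusted p 0.061 to 0.078), without A and C of the 21% ZT4-8 libraries together (0.075) and without B and D of the 21% ZT4-8 libraries together (0.060).

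Of 19 tested glucocorticoid-induced genes, which the steroid hormone of the adrenal switches on through its receptor, 13 were higher and 1 lower, with a median log2 change of 1.42. Cebpd, a transcription factor of the acute phase, was at 0.681, 0.515, 0.851 and 0.289 CPM at 21% oxygen and at 17.4, 22.1, 15.4 and 10.3 CPM at 6%, a rise of 4.71 ± 0.44 SE on the log2 scale (adjusted p = 4.8e-07). No 21% kidney reached 1 CPM and no 6% kidney was below 10 CPM. Its relative Cebpb rose 2.94-fold, the transcription factor Zbtb16 4.24-fold and the small GTPase Rhob 2.54-fold. Rasd1, a small GTPase induced by dexamethasone that was not on the list, rose 7.98-fold, and Arrdc2, of the alpha-arrestin family, 7.30-fold. The zinc-binding metallothioneins Mt1 and Mt2 rose 1.85-fold and 2.68-fold. Sgk1, the kinase that raises sodium uptake in the distal nephron, stood at 145, 104, 169.6 and 119 CPM at 21% oxygen and at 449, 557, 469 and 363 CPM at 6%, so that the lowest 6% kidney exceeded the highest 21% kidney (adjusted p = 0.00031). The member that fell was Sult1a1, a sulfotransferase, 1.54-fold (adjusted p = 0.0095).

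HIF targets rose in part. Of 28 tested members 10 were higher, 0 lower and 18 were not called, with a median log2 change of 0.24 against 0.004 over all genes. The count was 7 without the 6% library D, 8 without the 21% library D and 9 without the 21% library B or the 6% libraries A or C. Ankrd37, whose promoter is printed above, was at 5.10, 4.89, 3.12 and 6.93 CPM at 21% oxygen and at 90.6, 31.8, 63.5 and 62.7 CPM at 6%. The groups lay far apart although the 6% kidneys ranged widely, with B lowest (log2 change 3.64 ± 0.33 SE, adjusted p = 8.3e-07). Ddit4, an inhibitor of mTORC1, rose 9.88-fold, from 28.3 ± 7.0 to 279.6 ± 81 CPM. Bhlhe40, a repressor shared by the HIF and clock lists, rose 2.61-fold. The lipid droplet gene Hilpda rose 2.75-fold, the vasodilator peptide gene Adm 3.81-fold and the histone demethylase gene Kdm3a 1.95-fold. Ndrg1, the most abundant of those called, rose from 2238 ± 231 to 3479 ± 603 CPM, with an adjusted p of 0.0024 that became 0.057 without the 21% libraries B and D.

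Pfkfb3 and Plod2 were called nearer the threshold (adjusted p = 0.011 and 0.016). Pfkfb3, which makes an activator of glycolysis, had groups that overlapped and was lost without the 6% library D (adjusted p 0.051) and in a fit of these 8 libraries alone (0.066). Plod2, a collagen lysyl hydroxylase, was lost without the 21% libraries B or D or the 6% libraries A or D (adjusted p 0.053 to 0.066), in a fit of these 8 libraries alone (0.11) and without B and D of the 21% ZT4-8 libraries together (0.21). Vegfa, the main growth factor of blood vessels, did not pass the test: it was at 289.9, 273, 243 and 313 CPM at 21% oxygen and at 267, 252, 274 and 293 CPM at 6%, with groups that overlapped (log2 change -0.04 ± 0.10 SE, adjusted p = 0.87). Epo, the kidney's best known HIF target, was not analysed here.

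Of 11 tested core genes of the HIF machinery 1 was called, the coactivator Ep300, which fell 1.41-fold (adjusted p = 0.037), a call lost without the 21% libraries A, B or D or the 6% libraries A, C or D (adjusted p 0.051 to 0.13), with a replicate block (0.070), in a fit of these 8 libraries alone (0.100) and without B and D of the 21% ZT4-8 libraries together (0.14). Hif1a mRNA was 15.9 ± 2.2 CPM at 21% oxygen and 19.1 ± 4.7 CPM at 6% (adjusted p = 0.53), and Epas1, which encodes HIF-2 alpha, was 289.9 ± 22 and 255 ± 28 CPM (adjusted p = 0.50). The oxygen-sensing hydroxylase genes Egln1, Egln2 and Egln3 had log2 changes of 0.19, 0.29 and 0.26 and were not called, although the Egln2 groups did not overlap. These are mRNA levels, and HIF alpha is known to be regulated chiefly as a protein.

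Of 13 tested genes of glycolysis and lactate 2 rose. Slc16a3, the lactate exporter MCT4, was at 1.70, 1.80, 0.284 and 0.577 CPM at 21% oxygen and at 5.68, 3.69, 5.26 and 6.06 CPM at 6%, low but without overlap (adjusted p = 0.0020). Slc2a1, the glucose transporter GLUT1, rose 1.52-fold (adjusted p = 0.016), a call lost without the 21% libraries B or D (adjusted p 0.059 to 0.069), in a fit of these 8 libraries alone (0.083) and without B and D of the 21% ZT4-8 libraries together (0.23). Ldha, lactate dehydrogenase A, was 845 ± 49 and 1029 ± 34 CPM, with every 6% kidney above every 21% kidney, but its adjusted p was 0.12 (0.043 in DESeq2). Of 24 fatty acid oxidation genes 1 was called: the regulator Ppara fell 1.47-fold (adjusted p = 0.034) with overlapping groups, and the call was lost without the 21% libraries A or C or the 6% libraries A, C or D (adjusted p 0.059 to 0.13), in a fit of these 8 libraries alone (0.15) and without A and C of the 21% ZT4-8 libraries together (0.13). Pdk4 and Cpt1a, of the same list, were not called in the main fit. Pdk4 was called higher with a replicate block (adjusted p 0.027) and in DESeq2 (0.014). It was also called in a fit of these 8 libraries alone (log2 change 1.04, 0.0091) and without the 21% ZT16-20 library C (0.011). Cpt1a was called lower in DESeq2 (0.024), without the 6% library B (0.032) and without the 21% libraries A and C (0.028).

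In edgeR 0 of 47 tested nuclear genes of oxidative phosphorylation were called (3 at an unadjusted p under 0.05; 1 called by DESeq2), with a median log2 change of 0.03. Without the 21% library C 2 were called higher, and without A and C 12 were higher and 3 lower. For 68 cytosolic ribosomal protein genes the count was also 0 (6 at an unadjusted p under 0.05, all lower; 1 called by DESeq2), with a median of -0.03. Here 3 were higher and 5 lower without the 21% library C, 13 higher and 8 lower without A and C, 1 lower without the 21% library B and 2 lower without the 6% library D. Of 13 gluconeogenesis and ammonia genes 1 was called, Glud1, glutamate dehydrogenase. It stood at 514, 309, 537 and 298 CPM at 21% oxygen and at 564, 671, 676 and 649.9 CPM at 6% (adjusted p = 0.025). Its 21% values again split A and C from B and D, and the call was lost without the 21% libraries B or D or the 6% libraries B, C or D (adjusted p 0.050 to 0.097), in a fit of these 8 libraries alone (0.13) and without B and D of the 21% ZT4-8 libraries together (0.34).

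Pck1, the rate-limiting enzyme of gluconeogenesis, was at 2515, 3144, 3659.6 and 3139 CPM at 21% oxygen and at 1362, 2664, 1873 and 2469 CPM at 6%. The groups overlapped and the difference was not called (log2 change -0.57 ± 0.21 SE, adjusted p = 0.12). Of 19 cholesterol synthesis genes 2 rose: Insig1, which holds back the transcription factor SREBP, 3.75-fold, and the enzyme Hsd17b7 1.91-fold. Both were lost without the 21% libraries B and D (adjusted p = 0.051 and 0.089).

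**Figure D2:**
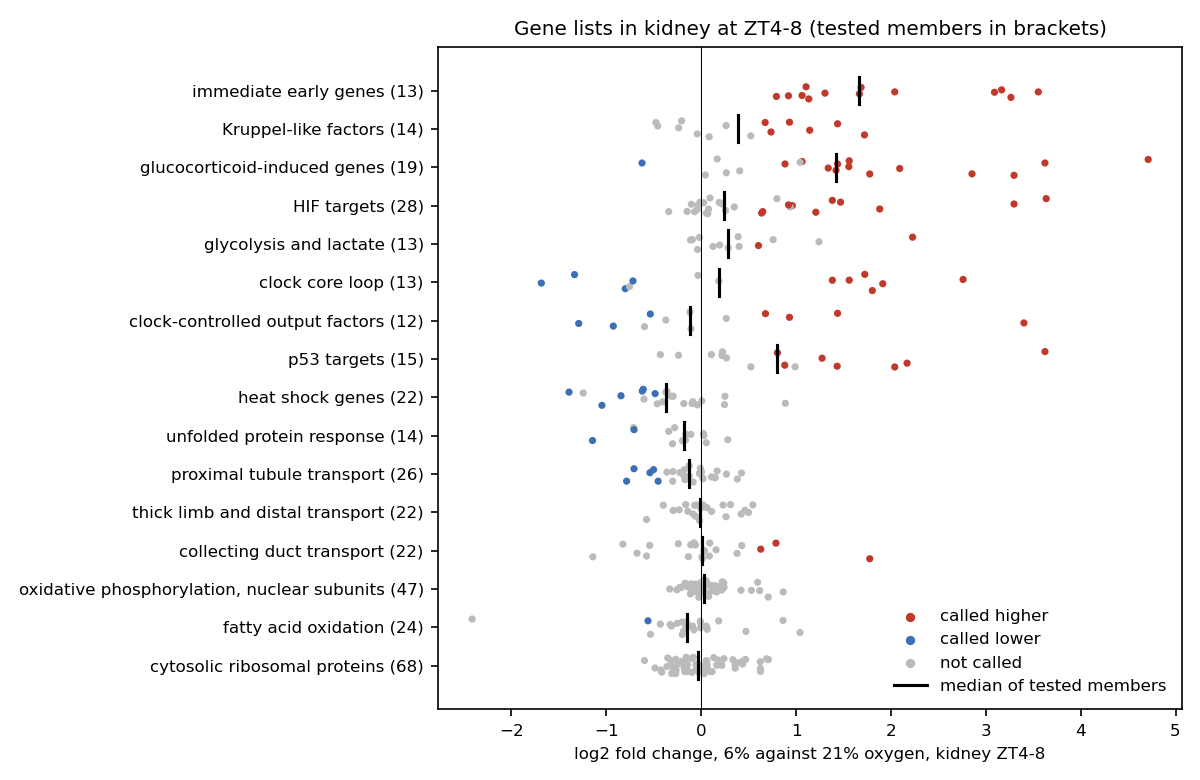
Log2 fold change at 6% against 21% oxygen of every tested member of the gene lists named on the axis, which are a part of those described in the text. Each point is 1 gene, coloured by whether it was called higher, called lower or not called. Black bars are medians. All 13 immediate early genes lie to the right and were called higher, the clock lists hold both directions, and the 6 called heat shock genes lie to the left.

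Core clock genes moved in both directions. Of 13 tested members 6 were higher and 4 lower. Nr1d1, the repressor REV-ERB alpha, was at 56.8, 48.4, 34.6 and 69.8 CPM at 21% oxygen and at 200.2, 195, 187 and 208 CPM at 6%, a 3.77-fold rise with close 6% values (adjusted p = 1.2e-06). Ciart, a circadian repressor with the 3 E-boxes shown above, rose 3.47-fold, from 7.84 ± 2.3 to 27.2 ± 3.1 CPM. Per1, a clock repressor also induced acutely by light, stress and glucocorticoids, was at 51, 33.7, 25 and 24.8 CPM at 21% oxygen and at 128, 76.5, 69.1 and 119.8 CPM at 6%. Its groups did not overlap (adjusted p = 0.0082; 0.14 without the 21% libraries B and D). The activators Npas2 and Arntl rose from low levels, Npas2 from 0.791 ± 0.66 to 5.72 ± 2.3 CPM (adjusted p = 0.00042) and Arntl from 3.47 ± 1.6 to 11.8 ± 4.8 CPM (adjusted p = 0.016). The Arntl groups overlapped, and its call was lost without the 21% libraries B or D or the 6% library D (adjusted p 0.055 to 0.062) and without B and D of the 21% ZT4-8 libraries together (0.21).

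Cry1, Per3 and Per2, which are repressors too, fell. Cry1 was at 9.53, 6.96, 9.93 and 8.66 CPM at 21% oxygen and at 1.58, 1.84, 3.38 and 3.92 CPM at 6%, 3.27-fold lower on the means (adjusted p = 0.00067). Per3, with 2 D-boxes in the window shown above, fell 2.56-fold (adjusted p = 0.0082) and Per2 1.74-fold (adjusted p = 0.013). Per1 and Per2, close relatives, were thus called in opposite directions in the same kidneys, though the Per2 call was lost without the 6% library D (adjusted p 0.053), in a fit of these 8 libraries alone (0.077) and without B and D of the 21% ZT4-8 libraries together (0.084).

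Among 12 tested clock-controlled output factors 4 were higher and 3 lower, and 5 were lower without the 21% library C. Nfil3, the repressor at D-boxes, was at 3.40, 2.06, 5.11 and 2.31 CPM at 21% oxygen and at 32.2, 40.1, 31.9 and 32.8 CPM at 6%. It rose 10.6-fold with no overlap (log2 change 3.40 ± 0.21 SE, adjusted p = 1.4e-09). Dbp, an activator at the same motif, was at 270.2, 306, 215 and 327 CPM at 21% oxygen and at 153, 109, 99.2 and 94.8 CPM at 6%, 2.45-fold lower (adjusted p = 1.3e-05). The related Hlf fell 1.46-fold (adjusted p = 0.015), a call lost without the 6% library D (adjusted p 0.051), in a fit of these 8 libraries alone (0.096) and without B and D of the 21% ZT4-8 libraries together (0.060). Tef, the other activator of the family, had a log2 change of -0.37 that was not called (adjusted p = 0.12), although it was called without the 21% library C (0.033). Cys1, which encodes cystin of the primary cilium, fell 1.90-fold, and the deubiquitinase gene Usp2 rose 1.60-fold. Klf9 and Klf15, counted above, were the other members that rose.

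Heat shock genes, which encode chaperones that fold proteins, fell or were not called. Of 22 tested 6 were lower, where 2.49% of all genes tested were, and 0 higher, with a median log2 change of -0.37. The count lower was 5 without the 21% library B and 4 where only these 8 libraries were fitted. Hspa8, the constitutive HSC70, was at 2218, 2613, 2231 and 2677 CPM at 21% oxygen and at 1483, 1588, 1019.6 and 1331 CPM at 6%, 1.80-fold lower with no overlap (adjusted p = 0.00071). Hspb1, the small heat shock protein HSP27 whose promoter is printed above, was at 93.6, 89.4, 100.4 and 86.9 CPM at 21% oxygen and at 31.9, 15.2, 54.9 and 37.8 CPM at 6%, 2.65-fold lower (adjusted p = 0.0026). Every 6% kidney was below every 21% kidney for both. Hsp90ab1 fell 1.54-fold and Hspa4 1.52-fold, the latter with an adjusted p of 0.070 without the 21% libraries B and D. Hsph1 fell 2.07-fold, but its 21% values were 246, 155, 292 and 116 CPM, again A and C above B and D, and its groups overlapped at D. The Hsph1 call was lost in a fit of these 8 libraries alone (adjusted p 0.058). The cochaperone gene Stip1 fell 1.40-fold, a call lost without the 21% library B (adjusted p 0.053), in a fit of these 8 libraries alone (0.066) and without B and D of the 21% ZT4-8 libraries together (0.14).

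In the unfolded protein response of the endoplasmic reticulum 2 of 14 tested genes were lower. Creld2 (adjusted p = 0.017) was lost without the 6% libraries A or C (adjusted p 0.052 to 0.068) and without B and D of the 21% ZT4-8 libraries together (0.060). Sdf2l1 (adjusted p = 0.048) had overlapping groups and was lost without the 21% libraries A, C or D, the 6% libraries A, B or D, the 21% ZT16-20 libraries A, B, C or D or the 6% ZT16-20 libraries A, B or D (adjusted p 0.052 to 0.17), with no count filter (0.053), with a replicate block (0.084), in DESeq2 (0.053), in a fit of these 8 libraries alone (0.13) and without A and C of the 21% ZT4-8 libraries together (0.13). Of 14 genes of the integrated stress response 3 were higher: its central factor Atf4, 1.64-fold, with Atf3 and Gdf15, described above. Of 13 NRF2 targets, which answer oxidative stress, 0 were called in edgeR (2 at an unadjusted p under 0.05; 0 in DESeq2). Without the 21% library C, or without the 6% ZT16-20 library D, 1 was called lower. Without the 21% libraries A and C 2 were lower.

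Of 6 genes listed for the cold response 2 were higher and 1 lower. Those not called were Rbm3, which was low at 1.43 to 3.69 CPM in the 6% libraries, Clk1 and Clk4. Cirbp, induced by mild cooling, was at 20.8, 23.2, 16.2 and 19.3 CPM at 21% oxygen and at 81.2, 59.5, 75.2 and 77.7 CPM at 6%. The lowest 6% value was far above the highest 21% value (adjusted p = 2.1e-06). Srsf5, a splicing factor, rose 1.39-fold, a call lost in a fit of these 8 libraries alone (adjusted p 0.052). Rsrp1, an arginine- and serine-rich protein gene, was at 341, 361, 351 and 351 CPM at 21% oxygen and fell 2.98-fold. Of 13 NF-kB targets and cytokines 3 were higher. The inhibitor gene Nfkbia rose 2.73-fold. Cxcl1, a neutrophil chemokine (adjusted p = 0.025), was lost without the 21% libraries B or D or the 6% libraries B or C (adjusted p 0.065 to 0.078) and without B and D of the 21% ZT4-8 libraries together (0.16). Tnfaip3, a feedback inhibitor (adjusted p = 0.030), was lost without the 21% libraries B or D or the 6% libraries C or D (adjusted p 0.077 to 0.12), with a replicate block (0.054), in a fit of these 8 libraries alone (0.056) and without B and D of the 21% ZT4-8 libraries together (0.26).

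Among the falls, Neat1 had the smallest p of those named. This noncoding RNA, the scaffold of nuclear paraspeckles (chromosome 19, 5824708-5845478, minus strand), was at 650.3, 749, 637 and 611 CPM at 21% oxygen and at 159, 136, 153 and 171 CPM at 6%. The 4.27-fold fall was far beyond the spread in either group (log2 change -2.09 ± 0.12 SE, adjusted p = 5.0e-10). Malat1, its neighbour on the chromosome, was at 40.2, 88.1, 27.8 and 147 CPM at 21% oxygen, with A and C below B and D, and at 75.5, 96.3, 60.1 and 73.8 CPM at 6% (log2 change 0.01, adjusted p = 0.99). The Malat1 value depended on the 21% libraries used: it was -0.64 without A and C (adjusted p = 0.024) and 1.17 without B and D (adjusted p = 0.0016). Of the 8 tested nuclear noncoding RNAs 2 were higher, Rpph1 and the snoRNA host Snhg5. Snhg5 (adjusted p = 0.041) was lost without the 21% libraries B or D, the 6% libraries A, B or D, the 21% ZT16-20 libraries B or C or the 6% ZT16-20 library C (adjusted p 0.051 to 0.14), with a replicate block (0.068), in a fit of these 8 libraries alone (0.13) and without B and D of the 21% ZT4-8 libraries together (0.42).

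Other large falls were those of single genes with varied roles. Fgf18, a fibroblast growth factor, was at 34, 35.3, 48.2 and 32 CPM at 21% oxygen and at 4.42, 11.5, 4.13 and 2.85 CPM at 6%, 6.52-fold lower on the means (adjusted p = 1.3e-05). Sox18, a transcription factor of endothelial cells, was at 20.4, 19.1, 11.3 and 27.4 CPM at 21% oxygen and at 2.84, 1.38, 1.88 and 4.99 CPM at 6%, 7.05-fold lower (adjusted p = 1.7e-05). Neither gene's groups overlapped. Tcf21, a transcription factor of the kidney stroma and podocytes, fell 2.83-fold, and Dnmt3a, a DNA methyltransferase, 3.41-fold to nearly the same level in all 6% kidneys (7.58, 7.37, 7.89 and 7.49 CPM). Grrp1 fell 4.63-fold, the C-type lectin gene Clec2d 4.75-fold and the small GTPase gene Rhov 4.05-fold. Tnfaip8 fell 2.95-fold, the adaptor gene Frs3 2.70-fold, Oraov1 2.63-fold and the nuclear import receptor gene Kpna4 2.56-fold.

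Of 26 tested proximal tubule transport genes 5 were lower and 0 higher (median log2 change -0.13), where 2.49% of all genes tested were lower: Kcnk5, Aqp1, Slc5a12, Lrp2 and Slc13a1. Kcnk5, the potassium channel TASK-2, was at 170.5, 196, 205 and 171 CPM at 21% oxygen and at 98.9, 120.3, 111 and 124 CPM at 6%, with no overlap (adjusted p = 0.0036). Aqp1, the water channel, fell 1.42-fold (adjusted p = 0.0049; 0.11 without the 21% libraries B and D). Slc5a12, a lactate carrier, Lrp2, the endocytic receptor megalin, and Slc13a1, a sulfate carrier, were nearer the threshold (adjusted p = 0.017, 0.032 and 0.045). Slc5a12 was lost without the 21% library B or the 6% libraries C or D (adjusted p 0.057 to 0.067) and in a fit of these 8 libraries alone (0.068). Lrp2 was lost without the 21% library B or the 6% libraries A, C or D (adjusted p 0.063 to 0.12), in a fit of these 8 libraries alone (0.10) and without B and D of the 21% ZT4-8 libraries together (0.11). Slc13a1 was lost without the 21% libraries A, B or C, the 6% libraries A, C or D, the 21% ZT16-20 libraries B or D or the 6% ZT16-20 libraries B or C (adjusted p 0.050 to 0.14), with a replicate block (0.084), in a fit of these 8 libraries alone (0.088), without A and C of the 21% ZT4-8 libraries together (0.081) and without B and D of the 21% ZT4-8 libraries together (0.056). The count was 2 of 26 without the 21% library B, the 6% library C or the 6% library D, and 3 without the 6% library A. The summed proximal tubule level was 20061 ± 2267 CPM at 21% oxygen and 18411 ± 1414 CPM at 6%, with A and C low at 21% as given above.

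Of 22 thick limb and distal tubule genes 0 were called in edgeR (5 at an unadjusted p under 0.05; 0 in DESeq2). Kcnj1, the potassium channel ROMK, was called lower without the 6% library B (0.021), where 1 other gene of the list was called higher. Without the 21% library A 2 were called higher, and without A and C 2 were higher and 2 lower. Of 22 collecting duct genes 0 were lower and 3 higher, where 2.79% of all genes were: Sgk1 above, and the intercalated cell exchangers Slc4a1 and Slc26a4. The list's median log2 change was 0.01, and at an unadjusted p under 0.05 4 were higher and 4 lower. Called lower were 2 in DESeq2, 2 without the 21% library C and 3 without A and C. It was 1 without the 21% library A, the 6% library B or the 21% ZT16-20 library A. Without B and D only 1 was higher. Slc4a1, which intercalated cells share with red cells, rose from 18.5 ± 2.8 to 31.9 ± 1.9 CPM (adjusted p = 0.0044; 0.089 without the 21% libraries B and D). The red cell gene Alas2, of heme synthesis, was called the other way, from 37.9 ± 10 to 18 ± 8.2 CPM (adjusted p = 0.046), and was lost without the 21% libraries A, B or D, the 6% libraries A or B, the 21% ZT16-20 libraries A or C or the 6% ZT16-20 libraries B or C (adjusted p 0.054 to 0.15), with no count filter (0.053), in a fit of these 8 libraries alone (0.094), without A and C of the 21% ZT4-8 libraries together (0.089) and without B and D of the 21% ZT4-8 libraries together (0.10). Slc26a4, pendrin, was at 68.7, 45.3, 73.8 and 38.4 CPM at 21% oxygen and at 81.2, 105, 77.4 and 86.3 CPM at 6%; its call (adjusted p = 0.045) was lost without the 21% libraries B or D, the 6% libraries A, B, C or D, the 21% ZT16-20 libraries A, C or D or the 6% ZT16-20 libraries B or C (adjusted p 0.056 to 0.15), in a fit of these 8 libraries alone (0.15) and without B and D of the 21% ZT4-8 libraries together (0.48). Of 7 targets of the osmotic factor NFAT5 1 was higher, Sgk1 again, and 1 lower, the inositol carrier Slc5a3, 1.52-fold (adjusted p = 0.028), lost without the 21% libraries A or B or the 6% libraries C or D (adjusted p 0.062 to 0.097), with a replicate block (0.051), in a fit of these 8 libraries alone (0.051) and without B and D of the 21% ZT4-8 libraries together (0.052). Cyp27b1, which activates vitamin D, was 3.01 ± 1.6 and 7.86 ± 3.5 CPM and was not called (adjusted p = 0.065), although it was called without the 21% library D (0.034), the 6% library C (0.043) or the 21% ZT16-20 library D (0.046). DESeq2 called Cyp27b1 higher (adjusted p 0.037).

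Of 13 genes of tubular injury and repair 3 were higher: Cdkn1a, the growth factor gene Hbegf and the transcription factor gene Sox4. Hbegf was at 14.3, 7.21, 23.5 and 8.95 CPM at 21% oxygen and at 46.7, 49.3, 57.9 and 61 CPM at 6%, a 3.98-fold rise with no overlap (adjusted p = 6.6e-05). Sox4 rose 1.84-fold. Spp1, osteopontin, was at 1165, 739, 1150.3 and 678 CPM at 21% oxygen and at 1471, 1201, 1477 and 1417 CPM at 6%. Its 21% values split A and C from B and D, and it was not called (adjusted p = 0.061), although it was called without A (0.031) or C (0.021). Spp1 was also called higher with a replicate block (0.031), in DESeq2 (0.041) and without A and C together (3.4e-04). Havcr1, the injury marker KIM-1, had 2, 6, 5 and 1 counts at 21% oxygen and 6, 1, 3 and 2 at 6% and was not tested.

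Of 20 angiogenesis genes 1 was higher, Adm, and 2 were lower. Nrp1, a VEGF coreceptor, fell 1.61-fold (adjusted p = 0.023), a call lost without the 21% libraries B or D or the 6% libraries B, C or D (adjusted p 0.058 to 0.070), in a fit of these 8 libraries alone (0.077) and without B and D of the 21% ZT4-8 libraries together (0.17). Dll4, a Notch ligand of sprouting vessels, fell 1.87-fold (adjusted p = 0.030), a call lost without the 21% libraries B or D or the 6% libraries A, B or D (adjusted p 0.062 to 0.10), with a replicate block (0.058) and without B and D of the 21% ZT4-8 libraries together (0.16). Of 14 endothelial markers Sox18 was the 1 called, and Pecam1 and Tek, an adhesion molecule and a receptor of the endothelium, had log2 changes of -0.34 and -0.46 and were not called. The summed endothelial level was 715 ± 51 CPM at 21% oxygen and 683 ± 66 CPM at 6%, so the fall of Sox18 stands beside a summed marker level that ranged from 592 to 748 CPM at 6% and from 669 to 782 CPM at 21%.

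Markers of other cell types were measured as a check on what the samples held. The 7 podocyte markers summed to 326 ± 8.0 CPM at 21% oxygen and 323 ± 19 CPM at 6%. The 9 macrophage markers summed to 382 ± 28 and 434 ± 47 CPM, and the 7 measured of 8 adipocyte markers, of fat around the organ, to 295 ± 56 and 402 ± 155 CPM. In edgeR 0 members of these lists were called (1 member of each at an unadjusted p under 0.05; 0 in DESeq2). Of 11 fibroblast and smooth muscle markers Col1a1, a collagen I chain, was called, 1.67-fold higher (adjusted p = 0.011). Neutrophil markers summed to at most 11.6 CPM, lymphocyte markers to at most 11.7 CPM and the 1 adrenal marker measured, of 9 listed, was at most 1.89 CPM in any library.

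The response at ZT4-8 was then set against that of kidneys exposed at ZT16-20, where 751 of 10878 genes were called (6.90%). Among all 10878 genes, 374 were higher and 377 lower at ZT16-20, which is the background for the overlaps that follow. Of the 303 genes higher at ZT4-8, 156 were also higher at ZT16-20, which is 51.5% of the first list and 41.7% of the second. Of the 271 lower at ZT4-8, 125 were also lower (46.1% and 33.2%). The difference between the phases was called for 40 genes (0.368%). With its sign kept, the log2 change at ZT4-8 was above that at ZT16-20 in 15 and below it in 25. In 33 of the 40 the fitted changes, called or not, had opposite signs, which picking genes by a test of the difference favours. Over all genes tested, 9 were called in both phases in opposite directions. The count was 155 without the 21% ZT4-8 library C and 1023 without A and C. It was 25 without the 6% ZT4-8 library D and 23 without the 21% ZT16-20 library D.

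Among the genes named, the differences with the smallest p were in clock genes. Dbp fell at ZT4-8 but rose at ZT16-20, from 14.1, 15.5, 12.8 and 14.8 CPM at 21% oxygen to 25.8, 27.1, 33.4 and 35.4 CPM at 6%. The log2 changes differed by -2.38 ± 0.24 SE (adjusted p = 2.7e-05). Both 6% groups lay between the 21% groups of the phases, which stood at 279.7 ± 49 CPM at ZT4-8 and 14.3 ± 1.2 CPM at ZT16-20. Npas2 did the reverse, rising at ZT4-8 and falling at ZT16-20 from 7.20 ± 0.73 to 1.36 ± 0.38 CPM (difference 5.12 ± 0.59 SE, adjusted p = 7.9e-05). Arntl did likewise, from 37.6 ± 5.3 to 18 ± 9.0 CPM at ZT16-20 (difference 2.78 ± 0.50 SE, adjusted p = 0.015; 0.15 without the 21% ZT4-8 libraries B and D).

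Nfil3 rose in both phases but more at ZT4-8. Its 21% level was 3.22 ± 1.4 CPM at ZT4-8 and 32.6 ± 4.6 CPM at ZT16-20, and the dark phase 6% level was 66.5 ± 3.2 CPM (difference 2.38 ± 0.27 SE, adjusted p = 7.9e-05). Ciart showed the opposite order, with a rise from 0.721 ± 0.21 to 15.7 ± 5.4 CPM at ZT16-20 (difference -2.59, adjusted p = 0.015; lost without the 21% ZT16-20 library D (adjusted p 0.057)). Tef, not called at ZT4-8, rose from 142 ± 17 to 247 ± 18 CPM at ZT16-20 (difference -1.17 ± 0.19 SE, adjusted p = 0.0062). Per3 fell at ZT4-8 and was 5.31 ± 2.0 and 8.89 ± 1.2 CPM at ZT16-20 (difference -2.08, adjusted p = 0.034), a call lost without the 21% library A, the 6% libraries B, C or D, the 21% ZT16-20 libraries B or D or the 6% ZT16-20 libraries A, B, C or D (adjusted p 0.050 to 0.099). Usp2 rose more at ZT16-20, from 169.9 ± 11 to 457 ± 44 CPM (difference -0.75, adjusted p = 0.022), a call lost without the 21% library A, the 6% library D, the 21% ZT16-20 libraries A or D or the 6% ZT16-20 libraries B or C (adjusted p 0.050 to 0.066), with a replicate block (0.057) and without B and D of the 21% ZT4-8 libraries together (0.050).

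Genes outside the clock differed too. Hspa8 fell at ZT4-8 and was 1758 ± 186 and 2222 ± 388 CPM at ZT16-20 (difference -1.18 ± 0.20 SE, adjusted p = 0.0065). Kcnk5 fell at ZT4-8 and rose at ZT16-20, from 98.6 ± 8.9 to 142 ± 32 CPM (difference -1.23, adjusted p = 0.0060). Its 21% level was thus above the 6% level in the light phase and below it in the dark phase. Susd3, a sushi domain gene, was 167 ± 41 and 118 ± 4.6 CPM at ZT4-8, with overlapping groups, and 90.5 ± 11 and 179.8 ± 10 CPM at ZT16-20 (difference -1.49, adjusted p = 0.00057). The Susd3 fall at ZT4-8 (adjusted p = 0.040) was lost without the 21% libraries A, B or D, the 6% libraries A, B, C or D or the 6% ZT16-20 libraries B or C (adjusted p 0.052 to 0.18), with a replicate block (0.057), in a fit of these 8 libraries alone (0.15) and without B and D of the 21% ZT4-8 libraries together (0.51). Herpud1, a gene of the endoplasmic reticulum stress response, rose from 481 ± 47 to 1077 ± 20 CPM at ZT16-20 and was not called at ZT4-8 (difference -0.88, adjusted p = 0.0062). DESeq2 called Herpud1 higher at ZT4-8 (adjusted p 0.0496). Clpx, the ATPase part of a mitochondrial protease, rose 2.05-fold at ZT4-8 and was 178 ± 9.1 and 158 ± 18 CPM at ZT16-20 (difference 1.21, adjusted p = 0.0024).

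Among the genes with large falls at ZT4-8, some fell less in the dark phase. Neat1 fell from 296 ± 39 to 132 ± 14 CPM at ZT16-20, a smaller log2 change than at ZT4-8 (difference -0.93 ± 0.17 SE, adjusted p = 0.014). Fgf18 was 9.58 ± 3.9 and 8.42 ± 2.2 CPM at ZT16-20 and not called there (difference -2.58, adjusted p = 0.015). Tnfaip8 differed by -1.27 (adjusted p = 0.015). With opposite sign, Col1a1 differed by 1.25 (adjusted p = 0.018; lost without the 6% library D (adjusted p 0.051)). Ndrg1 differed by 0.82 (adjusted p = 0.030), a call lost without the 21% libraries B or D, the 6% libraries B, C or D, the 21% ZT16-20 libraries A, B, C or D or the 6% ZT16-20 libraries A, B or D (adjusted p 0.053 to 0.084), with a replicate block (0.066) and without B and D of the 21% ZT4-8 libraries together (0.19). The genes with the largest rises at ZT4-8 did not pass this test in every case: for Cdkn1a, Egr1 and Ankrd37 the differences were 0.39, 0.22 and -0.80 (adjusted p = 0.62, 0.87 and 0.62).

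**Figure D3:**
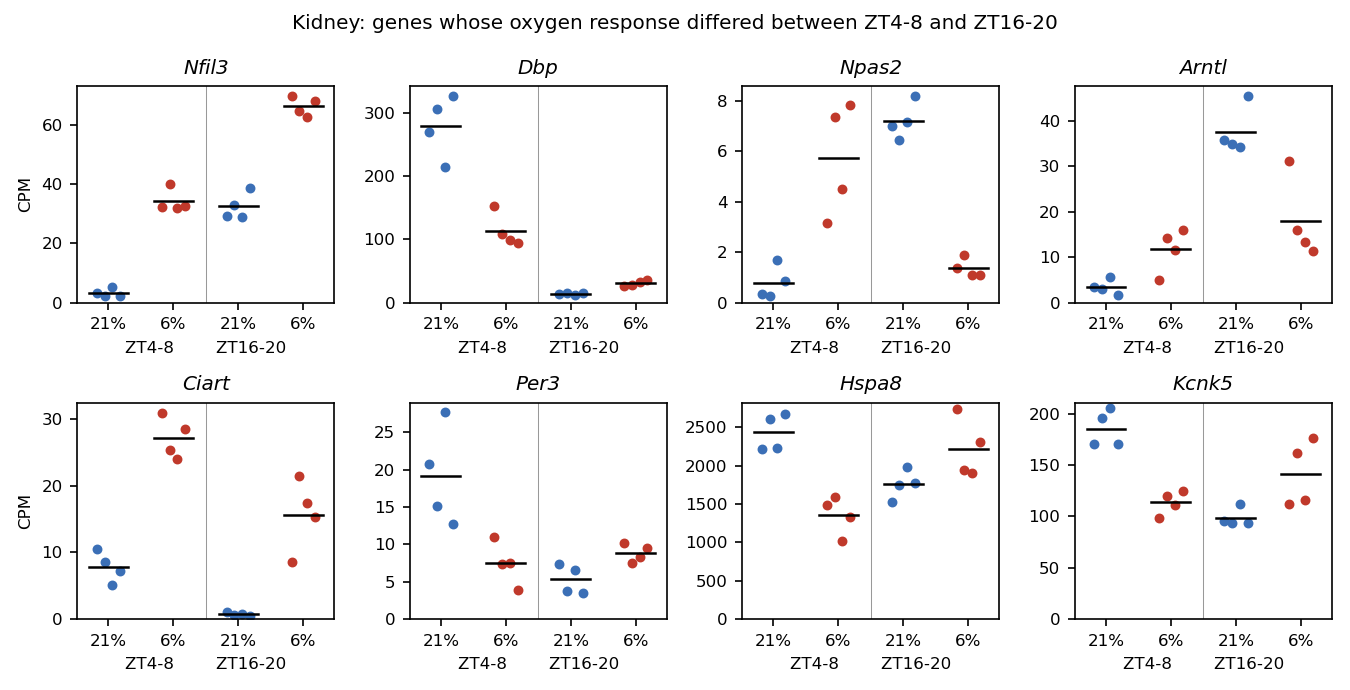
CPM in each kidney (points, 4 per group) and group mean (bars) at 21% and 6% oxygen, at ZT4-8 to the left and ZT16-20 to the right of each panel, for 8 genes whose oxygen response differed between the phases. Dbp falls from a mean of 279.7 to 114 CPM at ZT4-8 and rises from 14.3 to 30.4 CPM at ZT16-20, and Npas2 and Arntl move in the opposite directions.

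The kidney response was last compared with those of liver and lung at ZT4-8, in 1 fit over 48 libraries with mouse as a block. The series' design text has the 3 tissues sequenced from each mouse, and libraries of the same time, oxygen level and letter were taken to be 1 mouse, which the labels do not state. Deviations from the group means correlated at -0.12 to 0.35 between such libraries. The kidney response differed from that of liver for 360 of 10722 genes (3.36%). The kidney log2 change was above that of liver in 155 of them and below it in 205. For lung 389 genes differed (3.63%), 163 above and 226 below. Below means lower with the sign kept, so a larger fall in kidney counts there. The count against liver was 227 without the 21% mouse B, 226 without D and 631 without C. The count against lung was 218 without the 21% mouse B, 219 without D, and 248, 208 and 208 without the 6% mice A, C and D.

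Liver moved several stress and HIF target genes that kidney moved less or that were not called in kidney. Cited2, a HIF-induced inhibitor of the HIF coactivators, was at 117, 147, 103 and 103 CPM at 21% oxygen and at 145, 171, 118 and 116 CPM at 6% in kidney, with overlapping groups. In liver its mean went from 21.1 to 211 CPM, and the responses differed by -3.10 ± 0.21 SE on the log2 scale (adjusted p = 2.3e-13). Hilpda, called in kidney, rose more in liver, from 11 to 491 CPM (difference -3.97, adjusted p = 3.2e-11), as did Gdf15, from 11.4 to 614 CPM (difference -4.84, adjusted p = 1.4e-11). Igfbp1, a growth factor binding protein gene, was 60.4 ± 22 and 71.2 ± 18 CPM in kidney against 182 and 6123 CPM in liver (difference -4.93). The ephrin gene Efna1 (difference -3.47) and the amino acid carrier gene Slc38a2 (difference -2.34) rose in liver and were not called in kidney. Rassf1, a tumour suppressor gene, rose in liver (difference -2.35); in kidney it was called lower (adjusted p = 0.028), a call lost without the 21% libraries A, B or D or the 6% libraries A, B, C or D (adjusted p 0.052 to 0.12), in a fit of these 8 libraries alone (0.098) and without B and D of the 21% ZT4-8 libraries together (0.29). Neat1, so much lower in kidney at 6% oxygen, was 53.7 and 61.1 CPM in liver (difference -2.27 ± 0.21 SE, adjusted p = 4.4e-10).

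Some genes rose in lung and were not called in kidney. These were Rcan1, an inhibitor of calcineurin, Errfi1, a brake on the EGF receptor, Ackr3, a chemokine receptor, and Plaur, the urokinase receptor, with differences of -2.70, -2.64, -2.38 and -2.35 (the largest adjusted p was 1.0e-06). Ctgf, a matrix protein gene, fell in kidney from 120.1 ± 22 to 59.6 ± 9.0 CPM and rose in lung from 198 to 668 CPM (difference -2.80 ± 0.27 SE, adjusted p = 6.0e-09). Dusp6 likewise fell in kidney and rose in lung, from 50.3 to 184 CPM (difference -2.87, adjusted p = 2.2e-08). It also rose in liver, from 9.86 to 30.7 CPM (difference -2.60, adjusted p = 4.7e-07).

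The other genes named in these comparisons moved more in kidney. Rpph1 was 3.57 and 2.71 CPM in lung, where it was not called, against the rise in kidney (difference 5.72 ± 0.55 SE, adjusted p = 6.0e-09). In liver it rose from 3.58 to 44.9 CPM, and the difference from kidney, 1.62, was at an adjusted p of 0.049 and was lost without the 21% mice B, C or D or the 6% mice A, B or D (adjusted p 0.072 to 0.22), under RLE scaling (0.053) and without the mouse block (0.098). Arrdc2 was 22 and 22.2 CPM in lung (difference 2.85 ± 0.35 SE, adjusted p = 1.2e-06) and 7.89 and 15.2 CPM in liver (difference 1.96, adjusted p = 0.00075), and was called in neither.

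**Figure D4:**
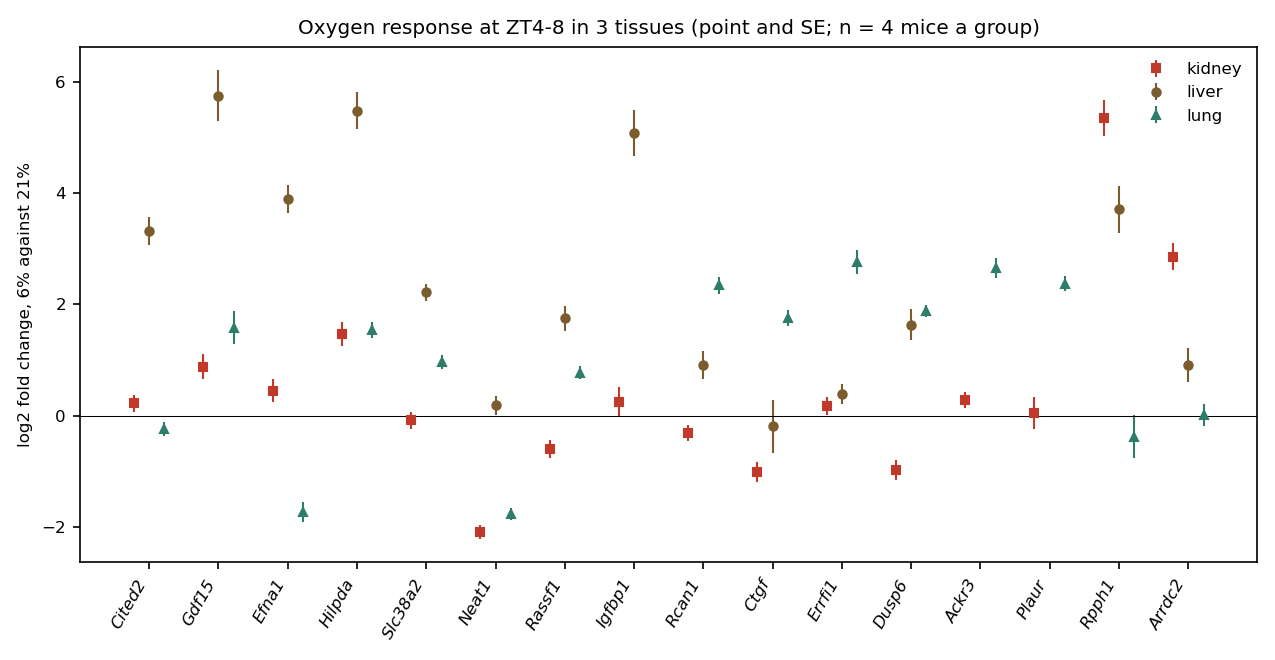
Log2 fold change at 6% against 21% oxygen at ZT4-8 with its SE (n = 4 mice a group) in kidney (squares), liver (circles) and lung (triangles) for genes whose response differed between kidney and another tissue; a gene without a point in a tissue was not tested there. Dusp6 and Ctgf lie below 0 in kidney and above it in lung, and Rpph1 and Arrdc2 are highest in kidney.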

How the data were processed

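Kidney RNA was analysed in 16 libraries, with liver and lung of the same exposure groups for comparison. The files hold whole-number read counts for each gene symbol, deposited by the authors with 1 table for every tissue. The submitters' processing notes list STAR, HTSeq, bcl2fastq, cutadapt and the build mm10. Their versions, the annotation and the use of strand were not stated in what was used here, so a gene cannot be separated from one antisense to it. Per the labels' protocols, cDNA was evened by PCR and then amplified linearly. The kidney table held 12921 genes, and the smallest highest count of any was 6.

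Tests used edgeR 4.0.16 under R 4.3.3: filterByExpr (minimum count 10, minimum total 15; 2043 genes fell below it), TMM, the robust quasi-likelihood test and Benjamini-Hochberg adjustment over every gene tested. All 16 kidney libraries shared 1 fit of 4 groups. Tissues were compared over 48 libraries and 10722 genes with mouse as a block. The script was tested on simulated data. CPM use TMM-scaled totals. Library measures were compared by exact permutation tests, which cannot go below 0.029 for 4 against 4.

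Genes were named by rule: the 14 largest rises and 14 largest falls among called genes averaging 10 CPM or more whose groups did not overlap (placeholder symbols left out), up to 8 members per list by smallest p, up to 8 genes per difference, and a few clock, HIF and metabolic genes. Fosl2, Ier2, Jund, Plod2, Sult1a1, Zbtb16, Fosb, Nr4a2, Nr4a3 and Havcr1, the genes beyond the first 8 of a difference, and those of the closing observations were chosen after their values were seen. A few genes are not reported here. The members and the 43 gene lists were chosen with earlier results of these data known. Alternatives were RLE scaling, no count filter, a replicate block, DESeq2 1.42.0, only the 8 libraries, and each library left out; leaving out pairs of 21% libraries was added after seeing the data.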

Additional observations from a re-analysis of the deposited data

Results flagged for a closer look

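Among 340 sets of 4 libraries checked, 13 held a library whose gap to the nearest other exceeded Dixon's 95% critical share of the set's range, where chance gives about 1 set in 20. Among the 6% libraries, Nfil3 was high at 40.1 CPM in B against 31.9 to 32.8 CPM in the other libraries, Fos at 20.2 CPM in A against 13.8 to 14.3 CPM, Herpud1 at 838 CPM in D against 725 to 735 CPM and Rbm3 at 3.69 CPM in B against 1.43 to 1.58 CPM. Low values were those of Hilpda, 10.1 CPM in B against 16.9 to 18.2 CPM, Stip1, 60.4 CPM in B against 60.9 to 61.0 CPM, and Klf13, 74.4 CPM in C against 92.9 to 95.9 CPM. Among the 21% libraries, low values were those of Mir6516, 2.58 CPM in B against 5.96 to 6.35 CPM, Nrp1, 21.1 CPM in A against 28.3 to 29.2 CPM, and Tek, 16.3 CPM in A against 19.6 to 20.2 CPM. High values were those of Mt1, 532 CPM in D against 434 to 444 CPM, the lymphocyte marker sum, 8.35 CPM in D against 7.35 to 7.47 CPM, and Gapdh, 187 CPM in D against 4.54 to 9.27 CPM.

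The oxygen response of 18 named genes differed between ZT4-8 and ZT16-20 in the test of the difference itself. The log2 change at ZT4-8 minus that at ZT16-20 was positive for Nfil3 2.38, Npas2 5.12, Clpx 1.21, Ndrg1 0.82, Col1a1 1.25 and Arntl 2.78. It was negative for Dbp -2.38, Susd3 -1.49, Kcnk5 -1.23, Tef -1.17, Herpud1 -0.88, Neat1 -0.93, Fgf18 -2.58, Tnfaip8 -1.27, Ciart -2.59, Per3 -2.08, Usp2 -0.75 and Hspa8 -1.18.

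The kidney log2 change minus that of liver at ZT4-8 was called for 11 named genes. It was Cited2 -3.10, Gdf15 -4.84, Efna1 -3.47, Hilpda -3.97, Slc38a2 -2.34, Neat1 -2.27, Rassf1 -2.35, Igfbp1 -4.93, Rpph1 1.62, Arrdc2 1.96 and Dusp6 -2.60. Minus that of lung it was called for 8: Rcan1 -2.70, Ctgf -2.80, Errfi1 -2.64, Rpph1 5.72, Dusp6 -2.87, Ackr3 -2.38, Plaur -2.35 and Arrdc2 2.85.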

How the results depend on the processing

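Replicate letters did not pair the kidneys: same-lettered libraries of different groups had correlations of deviations from -0.40 to 0.28. With a replicate block 474 genes were called at ZT4-8 in place of 574, and 20 in place of 40 for the phase difference, where Arntl, Fgf18, Usp2, Tnfaip8 and Ndrg1 lost their calls (adjusted p = 0.057, 0.057, 0.057, 0.051 and 0.066). Without the mouse block, that is with no replicate block, the tissue differences gave 353 (liver) and 373 (lung). The ZT4-8 count was 264 (152 higher, 112 lower) with only the 8 libraries, 1854 (1148 and 706) without the 21% libraries A and C, and 286 (150 and 136) without B and D; the phase count was then 1023 and 27. DESeq2 gave 86 for the phase difference. Leaving out 1 library gave 342 to 1017 at ZT4-8 (183 to 602 higher, 159 to 415 lower), 521 to 984 at ZT16-20, 23 to 155 for the phase difference, 226 to 631 against liver and 208 to 458 against lung. The cause of these shifts was not tested, beyond fewer samples being fitted. Malat1 reversed to -0.64 without A and C. Of 122 named genes called at ZT4-8, 76 kept their call in all alternatives. The calls lost were 38 without the 21% libraries B and D, 31 with only the 8 libraries, 27 without the 21% library B, 24 without the 6% library D, 10 with the replicate block, 7 without A and C, 3 with no count filter, 2 in DESeq2 and 0 under RLE scaling. At 2148455 to 3865161 counts a library, genes under the filter, such as Havcr1, could not be compared.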

Other observations

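Several groups of genes outside the lists were noticed after their values were seen. Of the 20 tested collagen genes 6 were higher and 1 lower. In the type IV family, the chains of basement membranes, 4 of 5 tested genes were higher at ZT4-8 against 1 at ZT16-20, and no phase difference was called for the family. Col4a4 was at 115, 105, 87.4 and 101 CPM at 21% oxygen and at 197, 153, 181 and 189 CPM at 6%, with no overlap (adjusted p = 0.00016 in edgeR). Col4a3, which shares its promoter region with Col4a4, was at 149, 67.5, 167 and 61.8 CPM, with A and C above B and D, and at 215, 249, 219.8 and 239 CPM (adjusted p = 0.015 in edgeR). Col4a1 and Col4a2 rose 1.40-fold and 1.40-fold (edgeR adjusted p = 0.011 and 0.021), Col4a1 lost without the 21% library B (adjusted p 0.052), in a fit of these 8 libraries alone (0.072) and without B and D of the 21% ZT4-8 libraries together (0.10) and Col4a2 lost without the 21% libraries A or B or the 6% libraries A, C or D (adjusted p 0.051 to 0.082), in a fit of these 8 libraries alone (0.066) and without B and D of the 21% ZT4-8 libraries together (0.084). The collagen that fell was Col27a1, 1.71-fold, a call lost in a fit of these 8 libraries alone (adjusted p 0.068) and without B and D of the 21% ZT4-8 libraries together (0.075). The Col4a3 call was lost in a fit of these 8 libraries alone (adjusted p 0.097). Col5a1, counted among the 6 (edgeR adjusted p = 0.049), was lost without the 21% libraries A, B or C, the 6% libraries A, B, C or D, the 21% ZT16-20 libraries A, B, C or D or the 6% ZT16-20 libraries A, B, C or D (adjusted p 0.050 to 0.14), with no count filter (0.060), with a replicate block (0.067), in DESeq2 (0.072), in a fit of these 8 libraries alone (0.15) and without A and C of the 21% ZT4-8 libraries together (0.21).

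Of 173 tested genes whose symbol is Zfp and a number, most of them zinc finger genes, 3 were higher and 16 lower at ZT4-8. Their median log2 change was -0.18 against 0.004 over all genes. At ZT16-20 5 of them were higher and 22 lower, where 374 of all 10878 genes tested were higher and 377 lower.

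Gapdh, often used as a reference gene, has many processed pseudogenes, and how reads shared with them were counted is not given in the sources used here, so its values are uncertain. They fell into high and low libraries that did not follow oxygen at ZT4-8. Gapdh was at 6.13, 9.27, 4.54 and 187 CPM at 21% oxygen and at 235, 4.61, 3.76 and 243 CPM at 6%. At ZT16-20 it was at 311, 316, 317 and 286 CPM at 21% oxygen and at 3.73, 3.79, 3.99 and 3.65 CPM at 6%, so that there the high and low libraries coincided with the oxygen groups.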
